A study of Rattus norvegicus with 18 samples.

Results

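The data described here are the mucosa libraries of spinal cord injured (SCI) rats that received inosine or its vehicle. The 3 SCI-inosine and 3 SCI-vehicle mucosa libraries were chosen by their labels, and they are 6 of the 18 libraries of the series. All rats were male Sprague Dawley animals labelled wild type. Both injured groups had a complete transection of the cord at T8 at 6 to 7 weeks of age and were then injected intraperitoneally each day for 8 weeks. The SCI-inosine group was given 225 mg/kg/day of inosine, and the SCI-vehicle group was given sodium bicarbonate buffer (12 mM, pH 9.2). The 3 Control mucosa libraries, from uninjured and untreated rats, entered the fit and are shown as the reference level. An age of 6 to 7 weeks is given for the Control rats as well, and the study describes them as age-matched to the injured rats. The 9 detrusor libraries, 3 each of Control, SCI-vehicle and SCI-inosine, were used only to place genes by tissue and to set the same comparison in detrusor beside that in mucosa. Every library carries the same batch label. The study describes the samples of a condition as biological replicates. Each bladder was dissected into detrusor and mucosa, and the labels do not say which rat gave which library, so that libraries of the 2 tissues may come from the same rats.

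The bladder mucosa is the inner layer of the bladder wall. Its urothelium is a stratified epithelium that seals the wall against urine and releases transmitters when stretched, and the lamina propria below holds fibroblasts, vessels, immune cells and sensory nerve endings. The detrusor is the smooth muscle around it. When the cord is cut above the sacral segments, voluntary control of voiding is lost, reflex contractions take its place and the wall is remodeled. Inosine is a purine nucleoside formed from adenosine by deamination, known for protecting neurons and for promoting axon growth. The comparison asks whether inosine given after the injury left the mucosa with other transcript levels than vehicle did.

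Read counts per gene totaled 3787910 to 4973121 in the SCI-vehicle mucosa libraries and 3255012 to 4115953 in the SCI-inosine mucosa libraries, and 17995 to 18639 genes had at least 1 count. Of the 32754 genes counted, 15740 had more than 1 CPM (counts scaled to a common library size) in at least 3 of the 18 libraries and were tested. The biological coefficient of variation of the mucosa fit was 19.99%. The deposited counts identify genes by Ensembl numbers without names, and none of these numbers was found in the gene table at hand. A gene is therefore described by its levels, by its place in the Control tissues and, for 4 genes, by its number. CPM values are on library sizes scaled by TMM, the trimmed mean of M values. Tissue is described through genes that differed between the labelled Control tissues rather than through named markers. This is no independent check of the tissue labels.

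Almost no gene passed the test across all genes between inosine and vehicle in the mucosa. In edgeR's quasi-likelihood test, 1 gene (0.00635% of those tested) had a Benjamini-Hochberg adjusted p under 0.05, and it was lower with inosine. The second smallest adjusted p in that edgeR test was 0.551. Without adjustment, 870 genes (5.53%) had p under 0.05, where 5% would have it if no gene differed. Of these 870, 570 (3.62% of the genes tested) were higher with inosine and 300 (1.91%) were lower. The 3 SCI-inosine libraries lay above all 3 SCI-vehicle libraries in 755 genes (4.80%) and below them in 690 (4.38%). If the labels were exchangeable, a lack of overlap in either direction would have a probability of 0.1 per gene. Of the 15740 genes tested, 390 that were higher and 217 that were lower with inosine met both conditions, the unadjusted p and the lack of overlap. Most differences at an unadjusted p under 0.05 were below 1 in absolute size on the log2 scale. The median absolute log2 fold change of the 870 genes was 0.63, and 239 of them differed by more than 1 on the log2 scale, 176 higher and 63 lower. The median log2 fold change of all genes was 0.00 to 2 decimals. An exact permutation test of a single gene with 3 libraries against 3 cannot give a p below 0.1.

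**Figure D1:**
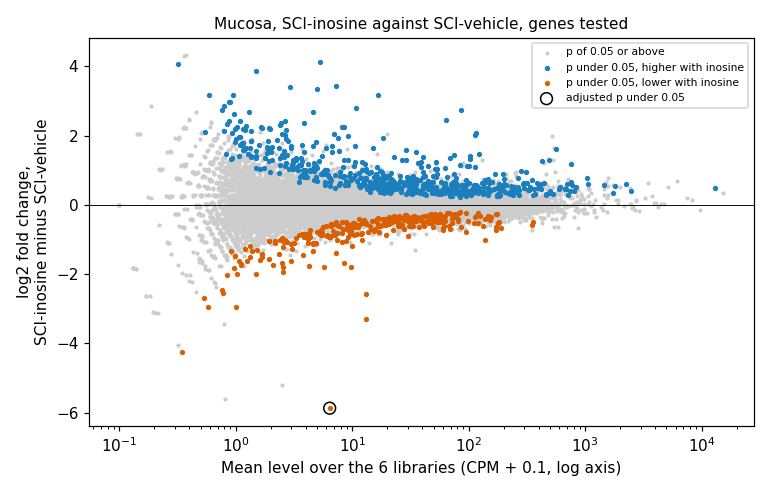
Log2 fold change of SCI-inosine over SCI-vehicle mucosa (vertical) against the mean level over the 6 libraries (horizontal, CPM plus a small constant, log axis), 1 point per gene tested. Blue and orange mark the 570 higher and 300 lower genes at an unadjusted p under 0.05, and the circle marks the 1 gene with an adjusted p under 0.05, which lies alone at -5.87.

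Genes at an unadjusted p under 0.05 were spread over the whole range of abundance. When the tested genes were sorted by mean level into 4 bins of 3935 genes, the share called was 5.13% in the lowest bin, 5.69% and 5.72% in the middle bins and 5.57% in the highest. The direction was less even than the share. In the highest bin, with means from 60.3 CPM, 178 genes were higher and 41 were lower with inosine, whereas in the bin above the lowest 125 were higher and 99 lower. The median absolute log2 fold change of called genes was 1.44 in the lowest bin and 0.47 in the highest.

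The gene that fell with inosine was ENSRNOG00000006365. It was counted 61, 43 and 57 times in the 3 SCI-vehicle mucosa libraries and 0, 1 and 1 times in the 3 SCI-inosine mucosa libraries. Control mucosa held 38, 62 and 28 counts. Both groups without inosine thus had the transcript at a moderate level, and the SCI-inosine libraries had it at or next to 0. Scaled to library size, its level was 12.4 ± 3.68 CPM in SCI-vehicle, 0.186 ± 0.164 CPM in SCI-inosine and 8.61 ± 2.54 CPM in Control mucosa (SD, n = 3). The log2 fold change of SCI-inosine over SCI-vehicle was -5.87 with a standard error of 0.58 (adjusted p = 0.0203, edgeR's quasi-likelihood test with Benjamini-Hochberg adjustment). Over the pooled counts, 161 of 12935294 with vehicle and 2 of 11216664 with inosine, the ratio was 69.8, with a 95% interval of 19 to 581 that covers counting error only.

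The detrusor libraries, which may come from the same rats, also had this gene at 0 with inosine. SCI-vehicle detrusor held 35, 30 and 35 counts and Control detrusor 18, 45 and 19, whereas all 3 SCI-inosine detrusor libraries held 0. Set against a floor of 3 counts over the group, ENSRNOG00000006365 was at least 34.5-fold lower with inosine in detrusor (100 counts against 0). In the edgeR fit of the detrusor libraries its adjusted p was 0.0589. The 6 SCI-inosine libraries of both tissues were therefore the 6 lowest of the 18. ENSRNOG00000006365 was not enriched in either Control tissue (log2 0.18, Control mucosa over Control detrusor, adjusted p = 0.721 in edgeR's test). Injury with vehicle left it at 0.51 (log2) over Control mucosa (adjusted p = 0.614, edgeR).

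The call of ENSRNOG00000006365 depended on the libraries kept. Its log2 fold change stayed between -6.30 and -5.34 in 19 alternative analyses, but the edgeR or DESeq2 adjusted p ranged from 6.66e-16 to 0.270 and was above 0.05 in 8 of them. Leaving out SCI-inosine replicate 1, 2 or 3 gave edgeR adjusted p-values of 0.0568, 0.192 and 0.270. Leaving out SCI-vehicle replicate 1 gave 0.120, SCI-vehicle replicate 3 gave 0.0980 and Control replicate 1 gave 0.0612 for ENSRNOG00000006365 (adjusted p, edgeR).

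**Figure D2:**
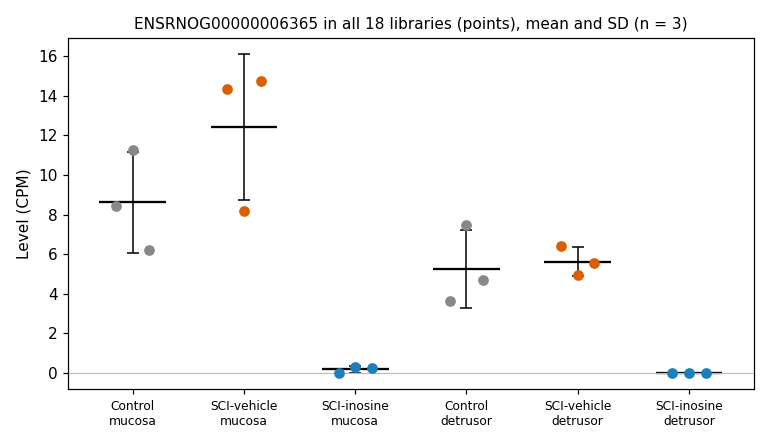
Level of ENSRNOG00000006365 (CPM) in each of the 18 libraries, as points by group and tissue, with the mean (line) and SD (bar) of each group of 3. The SCI-inosine libraries lie at or near 0 in both tissues, below every Control and SCI-vehicle library.

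Among genes with an unadjusted p under 0.05, no overlap between the groups and a mean of at least 10 CPM over the 6 libraries, 404 in all, the 8 with the largest positive and the 8 with the largest negative log2 fold change were examined. None of these 16 had an adjusted p under 0.05 in edgeR's quasi-likelihood test. The 8 genes that were higher with inosine had log2 fold changes of 1.38 to 2.80. In the other direction the 8 values ran from -1.002 to -0.70. The requirements of p, no overlap and mean level chose these genes, so their mucosal values are a description and the sizes of the 2 directions were not compared. The mean is over both groups, and some genes, among them ENSRNOG00000034290, reached it only through the SCI-inosine libraries, while ENSRNOG00000006365 lay under it.

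The highest of the 16 by log2 fold change was ENSRNOG00000034290, a gene of the detrusor in the Control libraries (log2 -4.62, Control mucosa over Control detrusor). Its levels were 0.706, 5.91 and 1.04 CPM in the SCI-vehicle mucosa libraries and 33.6, 15.7 and 7.78 CPM in the SCI-inosine mucosa libraries. The counts were low, at 3, 31 and 4 with vehicle and 126, 51 and 31 with inosine. The nearest libraries of the groups thus had equal counts and were separated only by the scaling to library size. Control mucosa had 12.4, 1.09 and 3.09 CPM. The SCI-inosine libraries were all above the SCI-vehicle ones, but the lowest of them lay below the highest Control library. ENSRNOG00000034290 had a log2 fold change of 2.80 with a standard error of 0.91 (adjusted p = 0.881, edgeR's quasi-likelihood test), and the log2 fold change ranged from 2.09 to 4.41 when single libraries were left out. It was also higher with inosine in detrusor, where it is more abundant. SCI-vehicle detrusor had 89.6, 188 and 178.9 CPM and SCI-inosine detrusor 213.3, 594.8 and 348.8 CPM, without overlap. The detrusor log2 fold change of ENSRNOG00000034290 was 1.34 with a standard error of 0.39 (adjusted p = 0.952, edgeR).

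ENSRNOG00000001414 was the second by size, and its detrusor groups overlapped. Its SCI-vehicle mucosa libraries had 19.5, 25.9 and 22.3 CPM and its SCI-inosine mucosa libraries 58.9, 112.7 and 277.9 CPM. Control mucosa had 48.7, 26.1 and 27.8 CPM. All 3 SCI-inosine libraries were above the other 6, and they spread over a wider range than the other groups, with replicate 3 highest. Its log2 fold change was 2.73 with a standard error of 0.50 (adjusted p = 0.842, edgeR's quasi-likelihood test). It ranged from 1.92, without SCI-inosine replicate 3, to 3.11, without SCI-inosine replicate 1, when single libraries were left out. DESeq2 gave ENSRNOG00000001414 an adjusted p of 3.06e-05 and edgeR's likelihood ratio test 3.47e-04, so its call turned on the test. In detrusor the groups overlapped, at 9.51, 53.0 and 3.80 CPM with vehicle and 10.9, 8.07 and 12.6 CPM with inosine. The difference between the tissues' log2 fold changes of ENSRNOG00000001414 was 3.78 with a standard error of 1.19 (adjusted p = 1.00, edgeR).

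The other 6 genes of this group lay between 16.0 and 181.7 CPM on average in SCI-inosine mucosa and between 4.98 and 45.1 CPM in SCI-vehicle mucosa. Of the 8 genes, 2 were enriched in Control detrusor, 1 was enriched in Control mucosa and 5 were in neither class. Over all genes tested these classes held 4.88%, 9.70% and 85.4%. The detrusor log2 fold change was above 0 in 3 of the 8, against 45.8% of all genes tested.

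The largest negative log2 fold change of the ranked genes was that of ENSRNOG00000021670, a mucosal gene in the Control libraries (log2 4.81, Control mucosa over Control detrusor). Its levels were 192.4, 228.9 and 135.9 CPM in SCI-vehicle mucosa and 134.7, 85.9 and 58.0 CPM in SCI-inosine mucosa. Control mucosa had 223.4, 96.1 and 124.6 CPM and overlapped both. The gap between the groups was narrow, since the highest SCI-inosine library lay next to the lowest SCI-vehicle library. The log2 fold change of ENSRNOG00000021670 was -1.002 with a standard error of 0.36 (adjusted p = 0.881, edgeR's quasi-likelihood test), and it ranged from -1.37 to -0.75 when single libraries were left out. Its detrusor log2 fold change was -1.17 (adjusted p = 0.952, edgeR) at levels of at most 40.4 CPM. SCI-vehicle detrusor had 40.4, 8.37 and 5.22 CPM and SCI-inosine detrusor 5.80, 12.0 and 5.93 CPM, and the groups overlapped.

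The other 7 genes of this group lay between 8.48 and 20.9 CPM on average in SCI-inosine mucosa and between 15.2 and 34.1 CPM in SCI-vehicle mucosa. Of the 8, 5 were enriched in Control mucosa and 0 in Control detrusor, against 9.70% and 4.88% of all genes tested. The detrusor log2 fold change was below 0 in 7 of the 8, against 54.0% of all genes tested. All SCI-inosine detrusor libraries lay below all SCI-vehicle detrusor libraries in 0 of the 8, so the detrusor values did not separate the groups.

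**Figure D3:**
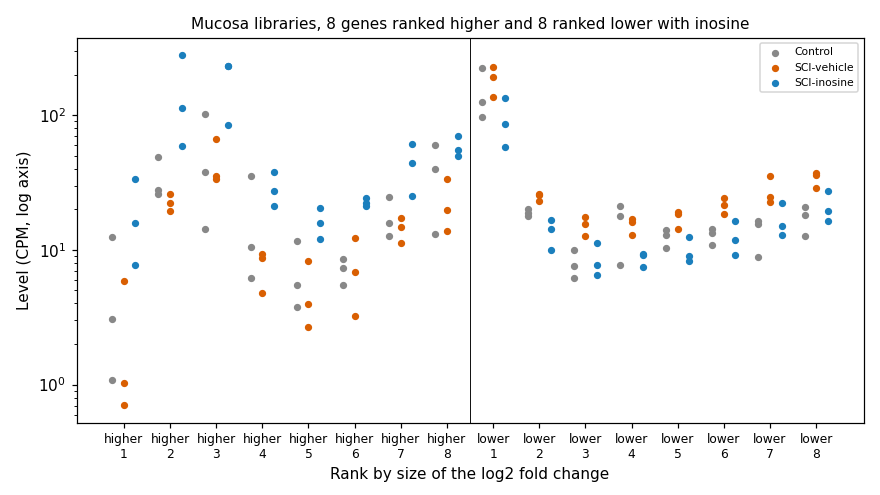
Levels (CPM, log axis) of the 8 genes ranked higher (left) and the 8 ranked lower (right) with inosine by size of the log2 fold change, in the 9 mucosa libraries. Each point is a library, colored by group. The first and second genes on the left are ENSRNOG00000034290 and ENSRNOG00000001414, and the first on the right is ENSRNOG00000021670.

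The smallest p-values after that of ENSRNOG00000006365 belonged to genes with differences of modest size. The first of them was a gene at 29.4, 32.6 and 29.8 CPM in SCI-vehicle mucosa and 62.7, 45.9 and 54.7 CPM in SCI-inosine mucosa. Its Control mucosa libraries had 34.3, 35.4 and 30.7 CPM, close to the SCI-vehicle ones. The log2 fold change was 0.83 with a standard error of 0.14 (adjusted p = 0.551, edgeR's quasi-likelihood test). The gene next in order of p had another arrangement. It was an abundant transcript at 769.5, 741.3 and 795.4 CPM in SCI-vehicle mucosa and at 1450, 1264 and 1252 CPM in SCI-inosine mucosa. Control mucosa had 1540, 1265 and 1245 CPM, so here the SCI-vehicle libraries stood apart and the SCI-inosine libraries were at the Control level. Its log2 fold change was 0.78 with a standard error of 0.13 (adjusted p = 0.551, edgeR). A gene enriched in Control detrusor came next, at 7.53, 8.77 and 9.32 CPM with vehicle and 19.2, 16.9 and 16.6 CPM with inosine. Control mucosa lay between them at 14.0, 11.6 and 13.5 CPM. In detrusor the 3 genes had log2 fold changes of -0.10, 0.10 and 0.00. The comparisons of each injured group with Control share their libraries with the one reported here, so these levels are given side by side and were not tested as a pattern.

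In the fit of the 9 mucosa libraries, genes typical of the muscle layer were more often higher and genes typical of the mucosa more often lower with inosine. Among the genes tested, 1526 (9.70%) exceeded their Control detrusor level by over 4-fold in Control mucosa with an edgeR adjusted p under 0.05 and were called mucosa-enriched, and 768 (4.88%) passed the same limits in the other direction and were called detrusor-enriched. Of the 768 detrusor-enriched genes, 56 were higher with inosine at an unadjusted p under 0.05 (7.29%, against 3.62% of all genes) and 2 were lower (0.260%, against 1.91%). Of the 1526 mucosa-enriched genes, 38 were higher (2.49%) and 82 were lower (5.37%). Mucosa-enriched genes made up 27.3% of the 300 lower genes, and detrusor-enriched genes 9.82% of the 570 higher ones. The median log2 fold change was 0.33 in the detrusor-enriched genes, -0.15 in the mucosa-enriched genes and 0.00 in the 13446 genes of neither class. Without overlap, SCI-inosine was above SCI-vehicle in 66 detrusor-enriched genes and below in 7, and above in 35 mucosa-enriched genes and below in 105. The classes were drawn from Control libraries, and the Control mucosa libraries also entered the fit.

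The mucosa libraries varied in their levels of detrusor-enriched genes. The detrusor share of a library was taken as the median, over 342 detrusor-enriched genes above 50 CPM in Control detrusor, of the distance from the Control mucosa level toward the Control detrusor level. It was 10.8%, -0.691% and 2.56% in the 3 SCI-inosine mucosa libraries and 5.02%, 0.0320% and -1.97% in the 3 SCI-vehicle mucosa libraries. Control mucosa spread over 8.18%, -5.45% and -3.29% when each library was set against the other Controls. The groups overlapped (difference 3.18 percentage points, exact two-sided permutation p = 0.6, smallest possible 0.1). The median level of the mucosa-enriched genes was 3.82, 3.92 and 3.83 log2 CPM in SCI-vehicle and 3.76, 3.64 and 3.70 in SCI-inosine, without overlap, and 3.80, 3.59 and 3.71 in Control mucosa. The exact two-sided permutation test of the injured groups gave p = 0.1, the smallest possible. The median level of the detrusor-enriched genes was 2.82, 2.44 and 2.20 log2 CPM with vehicle and 3.21, 2.35 and 2.698 with inosine, and overlapped. A mucosa share, taken likewise over mucosa-enriched genes from the Control detrusor level toward the Control mucosa level, also overlapped. It was 101.5%, 109.1% and 110.5% with vehicle and 103.7%, 93.0% and 97.6% with inosine. In bulk tissue, fewer cells of a type and less RNA per cell cannot be told apart. The detrusor share is a relative level, negative in some libraries, and does not measure an amount of detrusor RNA. It stands here beside the class counts, and its part in them was not tested. Leaving out all genes of both classes left 777 genes at an unadjusted p under 0.05, 533 higher and 244 lower, and the same single gene at an adjusted p under 0.05 in edgeR. Adding the detrusor share as a covariate, an analysis chosen after the data were seen, gave 2163 genes at an unadjusted p under 0.05, 1058 higher and 1105 lower.

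**Figure D4:**
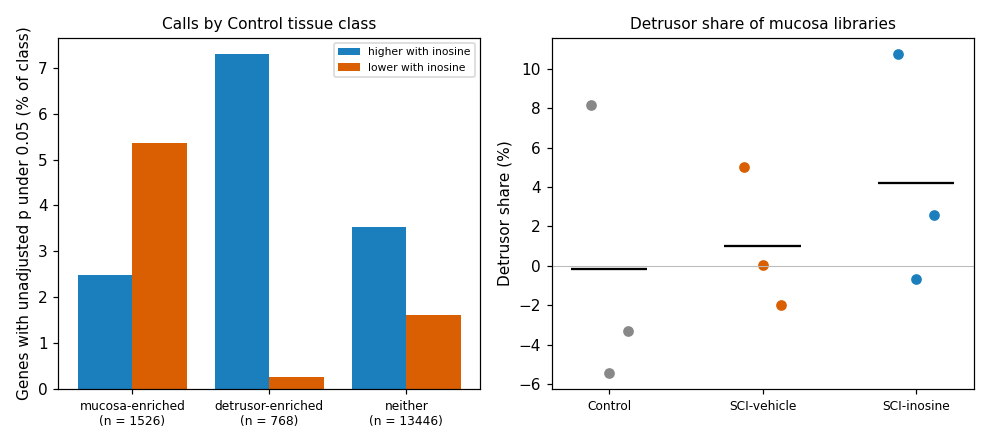
Left, share of each Control tissue class (% of its genes, number of genes below) with an unadjusted p under 0.05, higher (blue) or lower (orange) with inosine. Right, detrusor share (%) of the 9 mucosa libraries, as points with the group mean as a line, where the groups overlap.

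The class counts depended on the fit. With all 18 libraries in one model, the lower mucosa-enriched genes no longer outnumbered the higher ones, with 22 higher and 18 lower. Of all genes tested, that model had 383 higher and 139 lower. Among detrusor-enriched genes, 61 were higher and 1 was lower. With the detrusor share as a covariate, 117 mucosa-enriched genes were higher and 400 lower, and 61 detrusor-enriched genes were higher and 44 lower. That share is itself computed from 342 detrusor-enriched genes in these libraries, so this fit does not test its part in the class counts. The counts also moved when single libraries were left out. The number of mucosa-enriched genes that were lower ran from 38 (without SCI-inosine replicate 3) to 320 (without SCI-inosine replicate 1, the library with the highest detrusor share), and was 41 when SCI-vehicle replicate 2 was omitted and 44 when SCI-inosine replicate 2 was. The number of detrusor-enriched genes that were higher ran from 28 (without SCI-vehicle replicate 2) to 95 (without SCI-inosine replicate 2), and was 93 when SCI-vehicle replicate 1 was omitted and 36 when SCI-inosine replicate 3 was. Detrusor-enriched genes that were lower numbered between 1 and 9 in these repeats. The number of mucosa-enriched genes that were higher ran from 23 (reached both when SCI-vehicle replicate 2 and when SCI-inosine replicate 3 was omitted) to 103 (without SCI-inosine replicate 1), and was 25 without SCI-vehicle replicate 1 and 87 without SCI-vehicle replicate 3.

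The libraries of the groups were as far apart within a group as between groups. Over all genes tested, the root mean square log2 difference of library pairs was 0.567 ± 0.0726 within SCI-vehicle (SD, 3 pairs), 0.603 ± 0.103 within SCI-inosine (3 pairs) and 0.596 ± 0.0672 between them (9 pairs). The closest pair of all was SCI-inosine replicates 2 and 3, at 0.487. SCI-inosine replicate 1 was nearer to SCI-vehicle replicate 1 (0.511) than to SCI-inosine replicate 2 (0.685).

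Some libraries supplied more of the extreme values than others. SCI-inosine replicate 3 had the highest SCI-inosine level in 293 of the 570 higher genes (51.4%), and SCI-vehicle replicate 2 had the lowest SCI-vehicle level in 302 of them (53.0%). Of the 300 lower genes, SCI-vehicle replicate 2 had the highest SCI-vehicle level in 182 (60.7%), and SCI-inosine replicates 2 and 3 had the lowest SCI-inosine level in 124 and 122. Without SCI-inosine replicate 3 the genes at an unadjusted p under 0.05 numbered 468, and without SCI-vehicle replicate 2 they numbered 493. They numbered 1435 when SCI-vehicle replicate 3 was omitted and 1870 when SCI-inosine replicate 1 was. In the last case 980 were higher and 890 lower, so the excess of higher genes narrowed from 65.5% to 52.4% of the calls, while no gene had an edgeR adjusted p under 0.05.

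**Figure D5:**
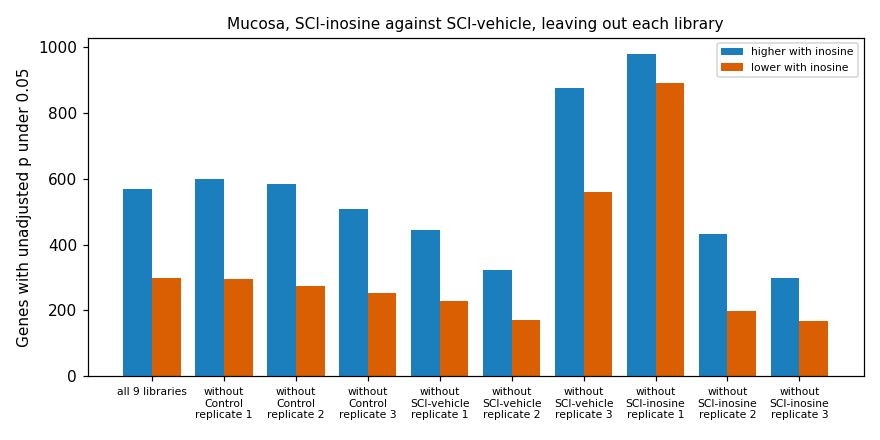
Number of genes at an unadjusted p under 0.05, higher (blue) or lower (orange) with inosine, in the fit of all 9 mucosa libraries and with each library left out in turn. The counts ran from 299 to 980 (higher) and from 169 to 890 (lower), both highest without SCI-inosine replicate 1.

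In detrusor the same comparison gave 689 genes (4.38%) at an unadjusted p under 0.05, 420 higher and 269 lower with inosine, and 0 with an edgeR adjusted p under 0.05. Of the 570 genes higher in mucosa, 306 (53.7%) had a positive log2 fold change in detrusor, against 45.8% of all genes tested. Of the 300 genes lower in mucosa, 205 (68.3%) had a negative one, against 54.0% of all genes. The detrusor changes of these genes were small, with a median log2 fold change of 0.04 for the higher genes and -0.18 for the lower ones, against -0.03 for all genes. At an unadjusted p under 0.05 in both tissues there were 73 genes, 8.39% of the mucosal calls and 10.6% of the detrusor calls. Of these 73, 47 were higher and 16 were lower in both tissues, 8 were higher in mucosa and lower in detrusor, and 2 were lower in mucosa and higher in detrusor.

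The difference between the tissues was also tested gene by gene in a model of all 18 libraries, which treats the libraries of both tissues as independent although they may share rats. No gene had an adjusted p under 0.05 in edgeR's test of this interaction, nor in its likelihood ratio test, and 609 (3.87%) had an unadjusted p under 0.05, of which 313 had the higher log2 fold change in mucosa and 296 the lower. The count at an unadjusted p was 1005 without SCI-vehicle detrusor replicate 1 and 1072 without SCI-inosine detrusor replicate 1. The gene with the smallest p in this test had 58.1, 78.3 and 43.2 CPM in SCI-vehicle mucosa and 159, 116.7 and 120.2 CPM in SCI-inosine mucosa. Control mucosa had 146.6, 156.7 and 111.6 CPM, so that the SCI-vehicle libraries were the low ones. In detrusor the level was 398.4, 553.9 and 724.2 CPM with vehicle and 377.5, 338.6 and 450.5 CPM with inosine, and the injured groups overlapped. Control detrusor had 132.8, 118.3 and 159.1 CPM, below all 6 injured detrusor libraries. The log2 fold changes were 1.135 in mucosa and -0.52 in detrusor, and their difference was 1.64 with a standard error of 0.34 (adjusted p = 1.00, edgeR). The next 2 genes by p in this test had smaller changes in mucosa, 0.33 and 0.30 on the log2 scale, and -0.43 and -1.49 in detrusor.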

How the data were processed

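Total RNA of rat bladder tissue was depleted of ribosomal RNA and made into stranded libraries. Paired-end reads were sequenced on a pair of flow cells, and the authors added the counts of both. The submitters' processing notes name Trim Galore 0.6.10, STAR 2.7.10a, featureCounts 2.0.3 and the build Rnor_6.0. The annotation release and counting strand are not given in the sources used here. The deposited values are whole-number counts per gene, not normalized, and 0 entries lacked a gene.

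Libraries were grouped by label. Genes above 1 CPM in at least 3 of 18 libraries were tested in edgeR 4.0.16 (R 4.3.3) with TMM scaling and the two-sided quasi-likelihood F test, with the 9 mucosa libraries in one fit and Benjamini-Hochberg adjustment over all genes tested. The interaction with tissue used one model of all 18 libraries. The standard error is the absolute log2 fold change divided by the square root of F. The code was tested on simulated data. DESeq2 1.42.0, other filters and samples and the omission of each library were alternatives. Ranked genes are the 8 largest log2 fold changes each way among genes with p under 0.05, no overlap and a mean of at least 10 CPM; 4 genes are printed by number, picked after their values were seen. Lists by gene symbol, cell type markers and the alternative without ribosomal protein and mitochondrially encoded genes were not run, since the identifiers could not be matched to names. The members, classes and rules were chosen with earlier results of these data known.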

Additional observations from a re-analysis of the deposited data

Results flagged for a closer look

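In 36 genes the 3 SCI-inosine and 3 SCI-vehicle libraries did not overlap in either tissue and the direction in mucosa was opposite to that in detrusor (0.229% of the genes tested). SCI-inosine was above SCI-vehicle in mucosa and below it in detrusor in 15 of them, and the reverse held in 21. In 73 genes the groups did not overlap in either tissue and the direction was the same (0.464%). If the labels were exchangeable, a lack of overlap of 3 libraries against 3 would have a probability of 0.1 in each tissue. Neither share was therefore read as a result about these genes. The difference between the tissues was not tested for these 36 genes as a group, and in the test of single genes none had an edgeR adjusted p under 0.05.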

How the results depend on the processing

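The count of 1 gene with an adjusted p under 0.05 became 13 in DESeq2 (11 higher, 2 lower), 9 in edgeR's likelihood ratio test (7 higher, 2 lower), 2 with the detrusor share as a covariate, and 0 with only the 6 compared libraries (788 genes at an unadjusted p under 0.05) and 0 with the replicate number as a block (1060 genes). The labels do not say whether replicate numbers pair the libraries. The correlations of same-numbered SCI-vehicle and SCI-inosine deviations were 0.198, -0.134 and 0.228, and not every library correlated best with its own number. With 3 libraries a group, these correlations cannot settle whether the numbers mark pairs. Leaving out single libraries gave 0 to 2 genes at an adjusted p (0 without Control replicate 1, SCI-vehicle replicates 1 and 3, and each SCI-inosine replicate), and 468 to 1870 genes at an unadjusted p (299 to 980 higher, 169 to 890 lower, among them 198 lower without SCI-inosine replicate 2). The 870 genes became 522 (139 lower) with all 18 libraries in one model, with 73.4% of calls higher, and 2163 (1058 higher, 1105 lower, 48.9% higher) with the share as a covariate. Genes without overlap, 1445 in all, numbered 2326 to 4830 with a library fewer, where fewer values have to be separated. The interaction count of 609 ran from 438 to 1072 when single libraries were left out. Causes not shown by an alternative's construction were not tested. The 4 numbered genes kept their direction in all alternatives run. The depth of 3255012 to 4973121 counts and 3 libraries a group limit what small differences in low genes could be detected.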

Other observations

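A search chosen after the data were seen asked which of the 32754 genes counted were at 1 count or fewer in every library of a group and at 10 or more in every other library. In mucosa, 1 gene, ENSRNOG00000006365, met this for SCI-inosine against the other 6 mucosa libraries, and 0 genes met the reverse. Over both tissues it was also the 1 gene that met it for the 6 SCI-inosine libraries against the other 12, and 0 genes met it for SCI-vehicle or for Control.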
